A study of Drosophila melanogaster with 4 samples.

Results

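Pole cells of Drosophila melanogaster, the germ-line precursors of the embryo, were compared on 2 arrays between embryos that expressed Tao in its form D168D and embryos that carried the same transgene without a driver. These 2 arrays are all those of this form among the 4 of the series, and they were taken by their labels. The driven embryos came from mothers homozygous for nosGal4:VP16, the non-driven ones from yw mothers. In both cases the fathers carried UAS-tao-1(D168D) together with EGFP-Vas, so the transgene and the germ-line marker were present in driven and non-driven embryos alike, and the mothers' genotype differed along with the driver. Embryos were at stages 8 to 14, and the pole cells were sorted on the marker. The labels name 1 driven and 1 non-driven source for the form and call it overexpression, the array titles carry the tag gof, and the title of the series names it wild type. The other 2 arrays used the form D168A, which the labels call dominant negative, in the same scheme.

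Tao is a kinase of the Ste20 family. It phosphorylates Hippo, the kinase that restrains the growth-promoting factor Yorkie, and it acts on microtubules. The nos regulatory sequences of the driver put the Gal4 activator into the egg and germ line, from where it can switch on a UAS transgene that the father brings. Pole cells form at the posterior end of the embryo before the somatic cells do, keep zygotic transcription largely silent at first, and later migrate to the gonad. The early zygotic genes that pattern the soma (gap, pair-rule and dorsoventral genes) are known to be kept off in newly formed pole cells.

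Each array carried driven RNA in one dye and non-driven RNA in the other, and the dyes were exchanged between the arrays. "Cy3-driven" and "Cy5-driven" name the dye of the driven RNA. Values are log2 ratios of driven over non-driven cells, so that 1 is 2-fold higher and -1 is 2-fold lower in driven cells. After ± stands how far each array lay from their mean. It covers hybridisation and dye only. The 2 arrays are a technical dye swap and count as 1 replicate, so no p-value is given and a gene was called by size alone, at 2-fold on both arrays with one sign. In RNA from sorted cells, fewer cells of a type and less RNA per cell cannot be told apart.

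Across 10805 genes most values were small and did not repeat between the arrays. The median size of a gene's mean was 0.149 and an array typically lay 0.158 from it (median). Of all genes, 5120 (47.4%) had the same sign on both arrays, 2520 above and 2600 below 0, and the arrays correlated across genes at r = 0.01. Higher values repeated more often than lower ones. Of 80 genes at least 2-fold higher on the Cy3-driven array, 64 were above 0 on the other and 17 reached 2-fold there. Of 68 on the Cy5-driven array, 44 were above 0 on the other. By contrast, of 128 genes at least 2-fold lower on the Cy5-driven array, 45 were below 0 on the Cy3-driven one and 1 reached 2-fold, and of 40 lower on the Cy3-driven array, 16 were below 0 on the other. The lowest mean of any gene, -2.29 for CG32298, came from -4.57 on the Cy5-driven array and a listed 0 on the Cy3-driven one. It shows how little a mean says where the arrays differ.

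**Figure D1:**
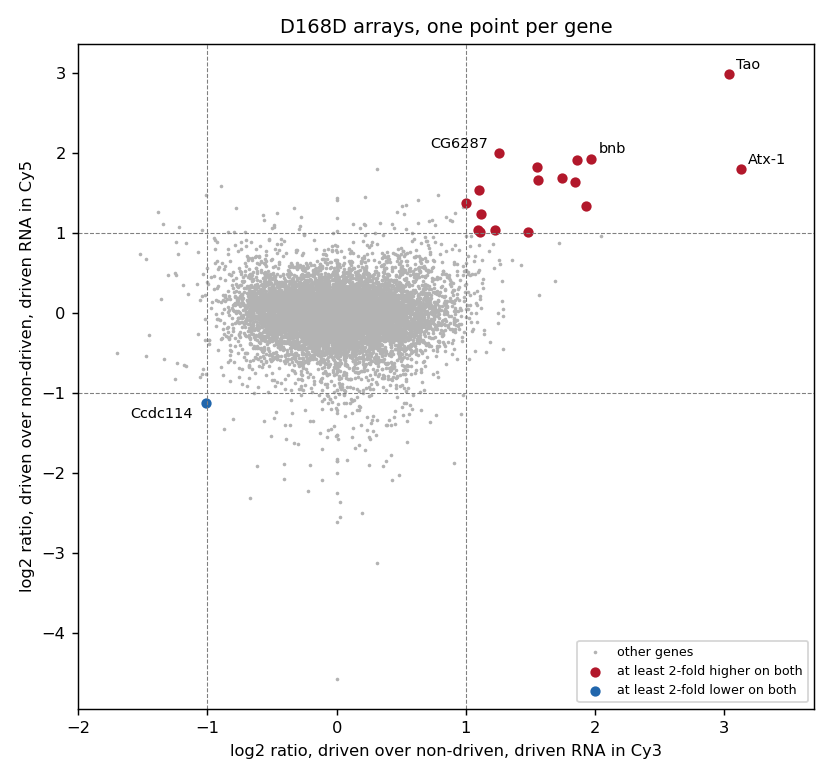
Each point is 1 of 10805 genes, with its log2 ratio on the Cy3-driven array (horizontal) against that on the Cy5-driven array (vertical) for D168D, and dashed lines at 2-fold. The cloud has no slope (r = 0.01), 17 genes lie in the upper right corner beyond 2-fold and 1, Ccdc114, in the lower left, while the long lower tail belongs to the Cy5-driven array alone.

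By the rule of size, 17 genes (0.157% of all) were higher in driven D168D cells and 1 (0.00925%) was lower. The targeted gene Tao headed them. It was at 3.04 on the Cy3-driven and 2.99 on the Cy5-driven array, a mean of 3.01 ± 0.02 or 8.08-fold. Its 2 probes were at 3.41 and 2.67 on the Cy3-driven array and at 2.91 and 3.07 on the other, so all 4 readings showed the label's direction. With 3-fold in place of 2-fold, 6 genes were left, of which Tao was 1.

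Among the called genes with a role in patterning the embryo, tll and Brd stood highest. The gene tll (tailless) encodes a nuclear receptor that specifies the ends of the embryo. It was at 1.85 on the Cy3-driven and 1.64 on the Cy5-driven array, 3.34-fold by the mean, and its probes lay close together at 1.71 and 1.77. Brd (Bearded) encodes an inhibitor of the ubiquitin ligase Neuralized, which activates Notch ligands. It was at 1.74 and 1.69 on the 2 arrays, 3.29-fold. Its probes were at 1.98 and 1.504 on the Cy3-driven array and 2.36 and 1.03 on the Cy5-driven array, each past 2-fold.

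Drep1 encodes the fly counterpart of the inhibitor of the caspase-activated nuclease that cuts DNA in dying cells. It was at 1.86 on the Cy3-driven and 1.92 on the Cy5-driven array, or 3.71-fold. One of its probes gave 2.26 and 2.47 on these arrays, the other 1.47 and 1.37. The other 3 genes of this family did not share its level. Drep2 was at 0.13 and 0.21, Drep4, the nuclease itself, at 0.07 and 0.20, and Drep3 at -0.24 and 0.09.

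The genes bnb (bangles and beads) and Atx-1, the fly relative of ataxin 1, followed Tao in size. For bnb the arrays gave 1.97 and 1.93, and its probes 2.27 and 1.68 on the first and 1.79 and 2.07 on the second. Atx-1, with 1 probe, was at 3.13 on the Cy3-driven and 1.80 on the Cy5-driven array. These arrays differed by more than for any other of the 18 called genes, but both were beyond 3-fold.

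Pmvk, CG6287 and Sod3 code for enzymes, and in each the probes disagreed. Pmvk, the phosphomevalonate kinase of isoprenoid synthesis, was at 1.93 and 1.34 on the arrays. One probe read 2.90 and 2.73 there, the other 0.96 and -0.05. CG6287, a phosphoglycerate dehydrogenase of serine synthesis, was at 1.26 and 2.004, from one probe at 2.69 and 4.07 and another at -0.18 and -0.06. Sod3, the extracellular superoxide dismutase, was at 1.56 and 1.67, with probes at 2.55 and 2.18 and at 0.56 and 1.16. For these genes the value thus depends on which probe is read.

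The rest of the higher genes lay nearer the threshold. Dlg5, a scaffold protein of the membrane-associated guanylate kinase class, was at 1.48 and 1.02, with its 3 probes between 0.93 and 1.54 in their means. Lapsyn, a leucine-rich repeat protein known from synapses, was at 1.09 and 1.04. CG7840 was the highest of those known by number, at 1.55 and 1.82. CG15628 (1.10 and 1.54), CG12159 (1.004 and 1.37), CG32243 (1.12 and 1.24), CG13653 (1.11 and 1.02) and Mabi (1.23 and 1.05) completed the 17. CG12159 on the Cy3-driven array and Dlg5 and CG13653 on the Cy5-driven array were only just inside the threshold. Just outside it were CG5708 (0.98 and 1.33), SNCF (2.05 and 0.97), CG13901 (1.04 and 0.96) and dpp (1.003 and 0.96), which missed it by at most 0.04 on 1 array.

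**Figure D2:**
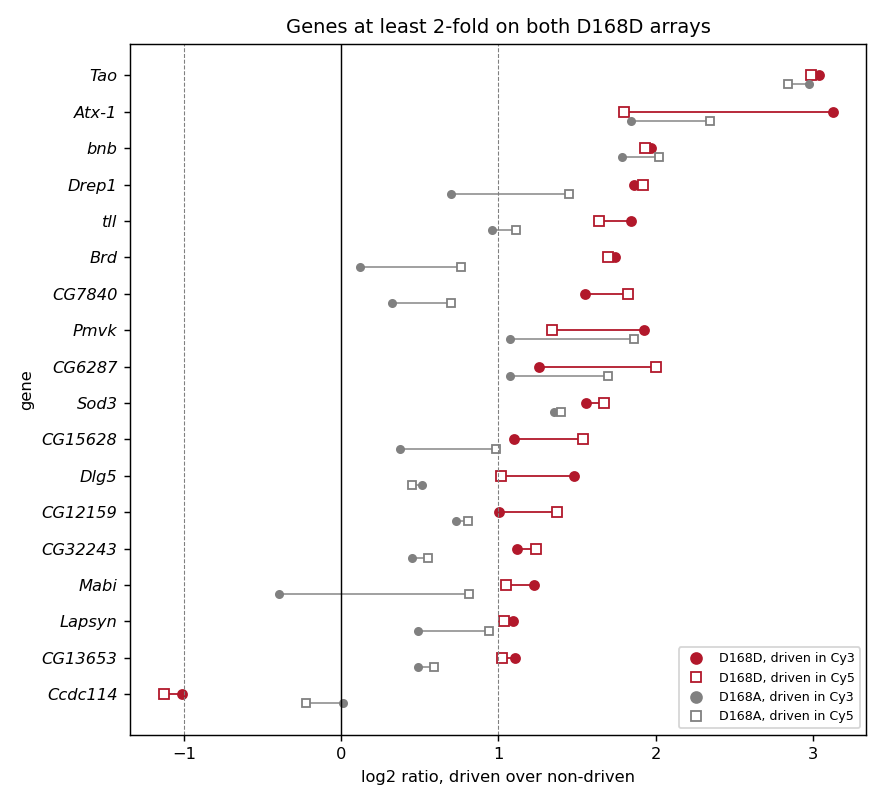
Log2 ratios of the 18 genes called with D168D, ordered by their mean, with red marks for the 2 D168D arrays and grey marks for the 2 D168A arrays (filled circles, driven RNA in Cy3; open squares, in Cy5) and dashed lines at 2-fold. Tao, bnb, Atx-1, Pmvk, CG6287 and Sod3 lie beyond 2-fold in both forms. For every other higher gene both grey marks lie to the left of both red ones, and the grey marks of Mabi lie on either side of 0.

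Probes of a gene bear on how firmly it can be read. Of the 18 called genes 6 had a single probe. Of the 12 with more, 5 had every probe past 2-fold on both arrays, namely Tao, bnb, Brd, tll and Drep1. Over all genes with 2 probes, the probes' means differed by 0.210 in the median and correlated at r = 0.31, across genes that are not independent replicates.

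Ccdc114 was the 1 gene called lower. Its human counterpart docks outer dynein arms in cilia and flagella. Ccdc114 was at -1.01 on the Cy3-driven and -1.13 on the Cy5-driven array, from 1 probe, so both arrays were just past the threshold. Beside this 1 gene, 5 genes were at least 2-fold in opposite directions on the arrays.

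A threshold of 1.5-fold on both arrays was met by 83 higher genes (0.768%) and 34 lower genes (0.315%), of which 66 and 33 were short of 2-fold. At that threshold the arrays were at least 1.5-fold in opposite directions for 73 genes, 23 higher on the Cy3-driven and 50 on the Cy5-driven array. The 1.5-fold tier thus carries less weight than the 2-fold calls, where 5 did so. The 34 lower genes lay between the counts of 23 and 50, and the 83 higher genes above both. Lower genes were thus no more frequent than genes whose arrays disagreed. Of the 47 higher genes with several probes, 45 had all probe means above 0, and of 7 such lower genes all 7 had them below 0. The genes were chosen by the average of these same probes, which favours such counts, so they are no independent support for the tier.

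Of the genes next below 2-fold, several act early in the embryo. The BMP ligand dpp was at 1.003 and 0.96 on the 2 arrays, with probe means of 0.37 and 1.60. The homeobox gene zen, which specifies the dorsal extraembryonic tissue, was at 1.21 and 0.86. Tom, a Bearded-family gene next to Brd on the chromosome, was at 0.85 and 1.21, and both its probes lay near 1, at 0.97 and 1.08. Cen, which encodes the centrosomal protein centrocortin, was at 0.89 and 1.16. SNCF, named as a cofactor of SoxNeuro, was at 2.05 and 0.97.

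Others served in metabolism or RNA handling. GstE1, a glutathione S-transferase, was at 0.92 and 1.25. The RNA capping enzyme mRNA-cap was at 0.92 and 0.85, and Tom40, the pore of the mitochondrial outer membrane's import machinery, at 0.81 and 0.86. The gene lig (lingerer) was at 0.88 and 1.17, from probes at 0.09 and 1.96 that disagreed. The remaining named ones, tun (1.10 and 0.85), CG11263 (1.03 and 0.84), CG30440 (1.73 and 0.88), CG4887 (0.89 and 0.80), CG5708 and CG13901, were above 0.8 on both arrays.

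The lower genes were led by CG34357 (-0.87 and -1.45), GstD5 (-1.25 and -0.82), boil (-0.82 and -0.84) and Sr-CI (-0.81 and -1.32). GstD5 is a glutathione S-transferase, of the same superfamily as GstE1, and Sr-CI a scavenger receptor of hemocytes. Ribosomal protein paralogues were among the others, RpS10a at -0.88 and -0.77 and RpS19b at -0.70 and -0.91. Rbm13 was at -1.01 and -0.76 and Kmn1, a kinetochore protein, at -0.68 and -0.81. The gene topi, which encodes a transcription factor that spermatocytes need to enter meiosis, was at -0.76 and -0.68. The rest were CG11594, CG3568, CG3769, CG4306, CG14810 and CG12811, with means from -0.93 to -0.71. Most rested on 1 probe: 7 of the 34 lower genes had several, against 47 of the 83 higher ones. Of all 10805 genes, 5274 had 1 probe.

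**Figure D3:**
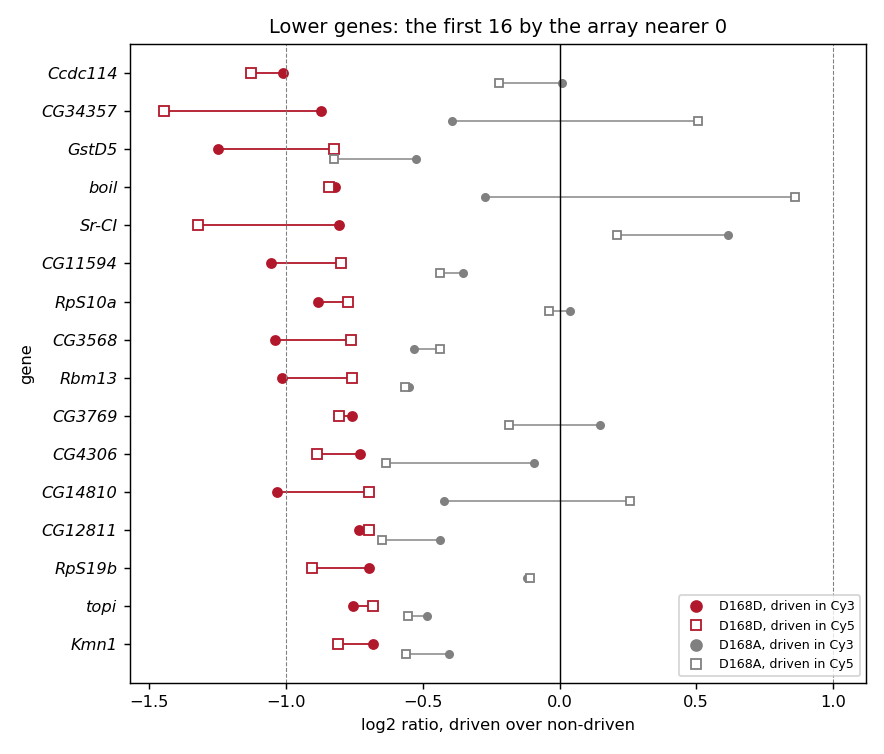
Log2 ratios of the first 16 lower genes, ordered by the D168D array nearer 0, with D168D in red and D168A in grey (filled circles, driven RNA in Cy3; open squares, in Cy5) and dashed lines at 2-fold. Every red pair lies between -0.68 and -1.45, while the grey marks scatter on both sides of 0 for genes such as boil, CG34357 and CG14810 and lie above 0 for Sr-CI.

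Genes that pattern the early embryo had more values above 0 than below. Over 7 lists of such genes (cellularization, gap with terminal and head, pair-rule, segment polarity, homeotic, dorsoventral and Bearded family), 84 different genes were measured. Their median was 0.16, against -0.01 over all genes. Of the 84, 42 were above 0 on both arrays and 10 below 0 on both, where all genes had 2520 and 2600. The 1.5-fold threshold was met by 11 higher and 0 lower members, beside 0.768% and 0.315% of all genes, and the 2-fold threshold by tll and Brd. The lists were drawn up with tll and Brd known to be high in these data, so their counts describe the genes and are no independent evidence of a direction.

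Among the genes that act while the blastoderm forms cells, 10 of 11 had a mean above 0 and the list median was 0.33, the highest of all the lists. Of all 10805 genes, 5077 had a mean above 0. Beside Brd and Tom, halo and Sry-alpha met the 1.5-fold threshold. The gene halo, which directs lipid droplets along microtubules, was at 0.71 and 1.15, and Sry-alpha, which acts on the actin of the new membranes, at 0.64 and 0.71. Both probes of each lay above 0.6. The cellularization genes nullo (0.76 and 0.26) and bnk (0.24 and 0.43) and the Bearded-family gene Ocho (0.07 and 0.33) were above 0 on both arrays and short of the threshold, and term was at -0.25 and 0.03.

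In the gap, terminal and head list, tll was well above the other 18 members. The gap gene gt (giant) was the other at 1.5-fold, at 0.70 and 0.85, though its 3 probes ran from 0.06 to 1.64. The terminal gene hkb was at 0.96 on the Cy3-driven array and 0.04 on the other, and cad at 0.82 and 0.22. At the low end oc was at -0.67 and 0.27 and cnc at -0.27 and -0.16. The list median was 0.09, and it was on different sides of 0 on the arrays, at -0.03 and 0.17.

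Of the pair-rule genes, hry (hairy), a transcriptional repressor, met the 1.5-fold threshold at 0.64 and 0.65. The zinc finger gene odd was at 1.10 and 0.53 and ftz at 0.38 and 0.70. The segment polarity genes had a median of 0.29 with 0 of 11 at the threshold, beside 0.768% higher and 0.315% lower among all genes. Their highest members were the neighbouring homeobox genes en, at 0.44 and 1.06, and inv, at 0.24 and 0.86.

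Of 22 dorsoventral genes, 16 had means above 0, where all genes had 5077 of 10805. The 1.5-fold threshold was met by 4, beside 0.768% of all genes, and all 4 are known to act on the dorsal side of the embryo. Beside dpp and zen they were tup, a LIM homeobox gene, at 0.76 and 1.10, and the T-box gene Doc1, at 0.61 and 0.71. From the same list tsg, sog, sim, rho, vnd and brk had no value here, and dorsal and ventral genes were not compared. The lowest member, the FGF ligand gene pyr, was at 0.28 and -1.47, so its arrays were on opposite sides. Of the 8 homeotic genes measured, zen was the 1 that met the threshold, and the list median was 0.02.

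**Figure D4:**
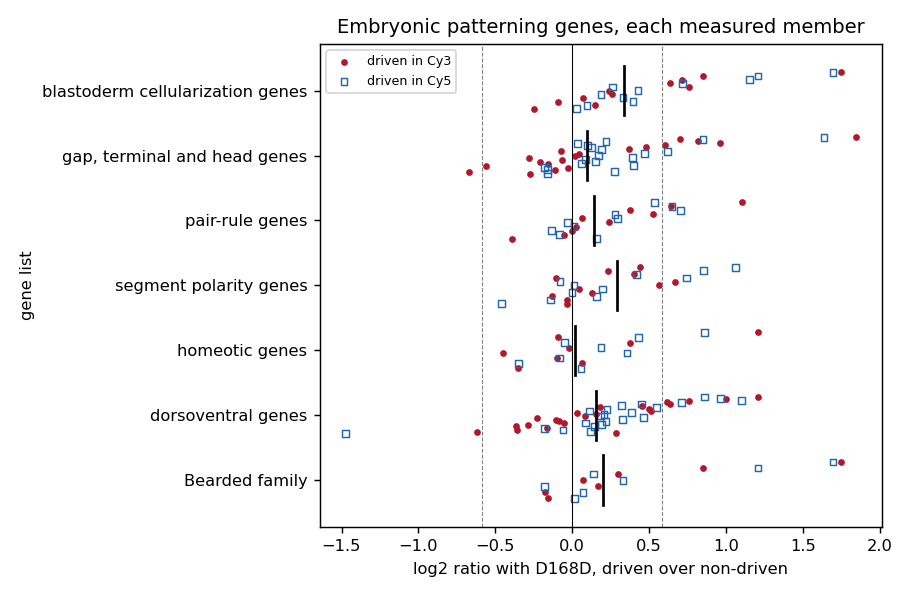
Log2 ratios with D168D of every measured member of 7 lists of patterning genes, with members ordered by their mean within a list, filled red circles for the Cy3-driven and open blue squares for the Cy5-driven array, black bars at the list medians of the 2-array means, and dashed lines at 1.5-fold. The right-hand pairs of marks are Brd and Tom in the cellularization and Bearded lists, tll in the gap list, and zen, dpp and tup in the dorsoventral list.

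In the Notch pathway, the targets E(spl)mbeta-HLH (1.13 and 0.42) and E(spl)m7-HLH (0.88 and 0.36) were the highest of 14 genes, with 0 at 1.5-fold and a median of 0.12. In the Hippo pathway, in which Tao acts, 0 of 22 upstream and core genes beside Tao met the 1.5-fold threshold. Of all genes, 0.768% were higher and 0.315% lower at that threshold, so a count of 0 in lists this short is near that share. With Tao included, the median of the upstream and core list was 0.21 on the Cy3-driven and -0.0017 on the Cy5-driven array. The kinase hpo, a substrate of Tao, was at 0.01 and 0.32, the kinase wts at 0.36 and -0.03, and their partners sav at -0.34 and -0.10 and mats at 0.21 and 0.21. The palmitoyltransferase app, at 0.86 and 0.46, mask, at 0.68 and 0.19, and the Ste20-family kinase msn, at 0.49 and 0.34, were the highest. Of the nuclear factors and targets, yki was at -0.31 and 0.11 and 0 of the 7 measured reached the threshold. From the same list sd, Diap1, ban, Myc, dally and hth had no value here, so the pathway's output was only partly measured.

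In the JNK pathway the ligand gene egr (eiger), the fly's tumour necrosis factor, met the 1.5-fold threshold at 0.69 and 0.90, with both probes above 0.7. The kinase bsk was at 0.18 and 0.28 and the pathway's target puc at -0.07 and 0.09. Of 17 members, 12 had means above 0, beside 5077 of 10805 genes in all, and the median was 0.11. In the apoptosis list Drep1 was the 1 of 16 genes at 1.5-fold, beside 0.768% higher and 0.315% lower among all genes. Its lowest member, the Bcl-2 family gene Buffy, was at -0.30 and -1.64, and its probes differed, at -1.69 and -0.26.

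Of the genes listed with Pmvk and with Sod3, 0 others met 1.5-fold, beside 0.768% higher and 0.315% lower among all genes. In the mevalonate list, 11 genes beside Pmvk were measured and 0 were at 1.5-fold. The regulator SREBP was at 0.53 and 0.00, Idi at 0.50 and -0.08, the geranylgeranyl synthase gene qm at 0.47 and -0.06 and the farnesyl synthase gene Fpps at -0.44 and 0.00. For SREBP, Idi and qm the Cy3-driven array was thus the higher one, with the other near 0. Beside Sod3, 0 of 13 genes of the antioxidant list were at 1.5-fold in either direction. The mitochondrial dismutase Sod2 was at 0.24 and -0.22, Prx1 at -0.43 and -0.53, and Qsox3 at -0.60 and 0.61, on opposite sides. Of 17 polarity scaffold genes, Dlg5 among them, 15 had means above 0 with a median of 0.17, and Dlg5 was the 1 at 1.5-fold. With D168A 14 of the 17 had means above 0, and over all genes 5077 of 10805 did so with D168D. The list median was 0.19 on the Cy3-driven and 0.08 on the Cy5-driven array. After Dlg5 the highest was cno at 0.67 and 0.28, and vari was lowest at -0.46 and -0.25.

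Among heat shock genes, the small chaperone gene Hsp27 met the 1.5-fold threshold at 0.61 and 0.70. Hsp68 was at 0.50 and 1.34 and DnaJ-1 at 1.002 and 0.55, each with 1 array short of it, and the median of the 16 genes was 0.02. Of 15 Polycomb group genes 12 had means above 0, beside 5077 of 10805 genes in all. Of these 15, E(z), the histone methyltransferase, was at 1.09 and 0.10 and Psc at 0.62 and 0.15. The list median was 0.36 on the Cy3-driven array and 0.0043 on the other. The tubulins (0.41 and -0.01) and the mevalonate genes (0.36 and -0.04) showed the same split. It was not particular to them. Smaller splits of this direction were seen in the piRNA, germ cell marker, Hippo upstream, hemocyte (0.20 and -0.04), JAK-STAT (0.18 and -0.01) and cyclin (0.13 and -0.03) lists. The maternal gamma-tubulin gene gammaTub37C was at 0.57 and 0.48. Of 18 cyclin and mitotic kinase genes, 0 were at 1.5-fold, beside 0.768% higher and 0.315% lower among all genes. The B-type cyclin genes CycB (0.49 and 0.37) and CycB3 (0.46 and 0.29) were highest. The JAK-STAT genes had a median of 0.00 over 10, with the receptor gene dome at 0.48 and 0.33.

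Values of germ-line genes were mostly small, as were those of all genes. Since the files hold ratios, they do not show whether a gene is present, and vas, nos and pgc had no probe assigned to them alone, so the sort cannot be checked against them. Over the germ cell markers, germ plasm genes and piRNA pathway genes, 40 different genes, the median was 0.06, with 16 above 0 and 8 below 0 on both arrays and 0 at 1.5-fold in either direction. Among all 10805 genes, 2520 were above and 2600 below 0 on both arrays, and 0.768% were higher and 0.315% lower at 1.5-fold. The median of the 40 was 0.19 on the Cy3-driven and 0.05 on the Cy5-driven array. It was 0.23 and -0.0021 for the germ cell markers and 0.22 and -0.09 for the piRNA pathway. The gap junction gene zpg, which germ cells need to survive, was at 0.52 and 0.34, mael at 0.68 and 0.11, orb at 0.23 and 0.40 and gcl at 0.29 and 0.11. The germ plasm organiser osk was at 0.05 and 0.04, and the piRNA factors aub and piwi were at -0.02 and -0.22 and at 0.33 and -0.21. The germ cell migration list lay higher, with a median of 0.28 and 9 of 11 means above 0, beside 5077 of 10805 in all. Its lipid phosphatase genes wun2 and wun were at 0.79 and 0.15 and at 0.32 and 0.23.

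Markers of somatic cell types that a sort could hold were also measured. Over 86 different genes of muscle, neurons and glia, epidermis and trachea, hemocytes, fat body, midgut and yolk, and gonadal soma, the median was -0.01 and 39 had means above 0, with 1 at 1.5-fold in each direction. Over all genes, 5077 of 10805 had means above 0, and 0.768% were higher and 0.315% lower at 1.5-fold. The higher marker was bab2, at 0.78 and 1.48, whose probes were at 0.06 and 2.20. The lower marker was Sr-CI. List medians ran from -0.17 for midgut and yolk to 0.03 for neurons and glia. The list of blastoderm cellularization genes, which are also somatic, lay at 0.33. The part of somatic cells in the values of the patterning genes was not tested.

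Genes of ribosomal proteins and of most respiratory complexes were on the low side. Over cytosolic and mitochondrial ribosomal proteins and the 5 respiratory complexes, 164 genes had a median of -0.12, with 17 above 0 and 73 below 0 on both arrays. Of all 10805 genes, 2520 were above 0 and 2600 below 0 on both. The median of the 164 was -0.09 on the Cy3-driven and -0.13 on the Cy5-driven array. The 2 of them at 1.5-fold were RpS10a and RpS19b. Means above 0 were found for 7 of 30 genes of complex I, 0 of 5 of complex II, 2 of 9 of complex III, 5 of 14 of complex IV and 8 of 16 of the ATP synthase, beside 5077 of 10805 genes in all. The ATP synthase median was 0.0043 on the Cy3-driven array and -0.08 on the other. Within the families single genes went the other way, such as mRpL1 at 0.50 and 0.74 beside mRpL41 at -0.92 and -0.47, ND-19 at 0.54 and 0.65 beside ND-B17.2 at -0.36 and -0.39, and RpS28b and COX7A at 0.22 and 0.98 and at 0.36 and 0.98. Proteasome genes, with a median of 0.03 over 38, held 1 lower gene, Prosbeta5R2, at -0.67 and -2.31, and their highest was Rpn7, at 1.28 and 0.40. Initiation factors, at 0.02 over 36, held eIF4E3, at -0.84 and -0.61. At 1.5-fold, 0.768% of all genes were higher and 0.315% lower.

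Among families of detoxification, glutathione S-transferases had a median of -0.14 over 28, with 5 above 0 and 11 below 0 on both arrays. GstE1 was high, GstD5 low and GstD4 at -1.70 and -0.50. Cytochrome P450 genes had a median of -0.05 over 76, with 9 above and 25 below 0 on both arrays, and 1 was at 1.5-fold, Cyp4p1 at -0.80 and -0.61. For both families the counts stand beside 2520 above and 2600 below 0 on both arrays among all 10805 genes. Of 147 chemosensory receptors 2 were at 1.5-fold, the ionotropic receptors Ir68a at 0.75 and 0.67 and Ir7c at 0.62 and 0.79. Of 105 cuticle protein genes 0 were at 1.5-fold. Of all genes, 0.768% were higher and 0.315% lower at that threshold.

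**Figure D5:**
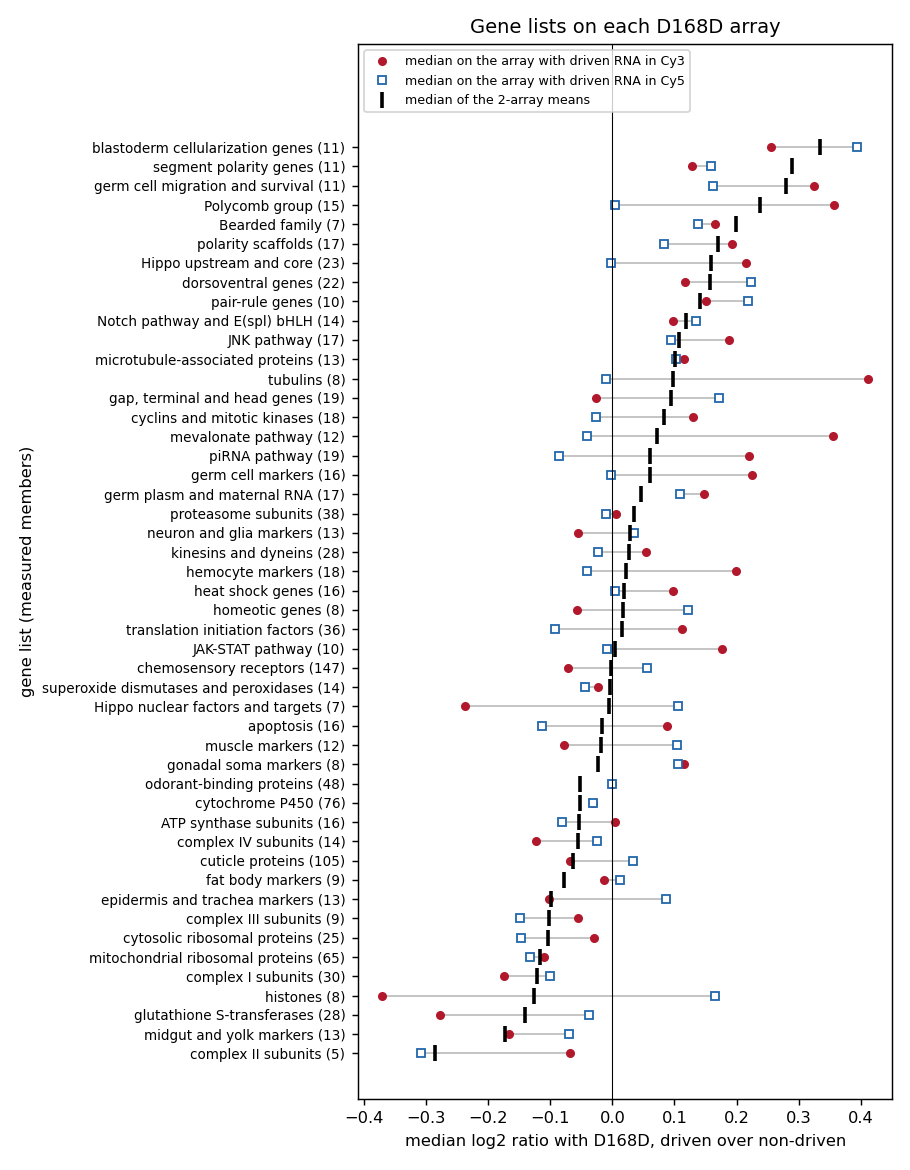
Median log2 ratio with D168D of each list with at least 5 measured members (number in brackets), on the Cy3-driven array (filled red circle), on the Cy5-driven array (open blue square) and over the 2-array means (black bar). Lists at the top (cellularization, segment polarity, germ cell migration) and at the bottom (complex II, midgut and yolk) have both arrays on one side of 0, while in the Polycomb, tubulin, mevalonate and histone lists the arrays lie far apart.

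The form D168A gives the same contrast with other driven and non-driven cells. There, 16 genes (0.148%) were higher and 1 (0.00925%) lower by the rule of 2-fold. Of the 17 higher with D168D, 6 were among them, which is 35.3% of the D168D genes and 37.5% of the D168A genes. They were Tao, bnb, Atx-1, Pmvk, CG6287 and Sod3. Of the other 11, 10 were above 0 on both D168A arrays, the exception being Mabi, at -0.40 and 0.81. Over all genes, 5753 of 10805 had a D168A mean above 0, and those above 0 on both D168A arrays were not counted. The 17 had a median of 1.63 with D168D and of 0.77 with D168A, and every mean was higher with D168D, the form in which these genes were chosen for being high.

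Among the 18 genes called with D168D, the means of the forms lay farthest apart for Brd and CG7840. With D168A, Brd was at 0.12 and 0.76, so that the difference of D168D from D168A was 1.28 ± 0.34. CG7840 was at 0.32 and 0.70, a difference of 1.18 ± 0.05, and was the 1 called gene whose difference reached 2-fold in both dye orientations. Drep1 was at 0.70 and 1.45 with D168A and tll at 0.96 and 1.11, so each had 1 array past 2-fold there. Tom was at 0.13 and 0.14 with D168A and halo at 0.05 and 0.47. Of the 83 genes higher at 1.5-fold with D168D, 62 were above 0 on both D168A arrays and 16 met 1.5-fold there. Of the 34 lower genes, 18 were below 0 on both D168A arrays and 0 met 1.5-fold, with a median of -0.16. The shares of all genes that do so with D168A were not counted, so these counts are no measure of agreement between the forms. With 1 replicate of each form, no test of these differences was run.

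Seen from the other side, the 16 genes higher with D168A had a median of 0.72 with D168D. Of these 16, 9 were above 0 on both D168D arrays, beside 2520 of 10805 genes, and 8 met 1.5-fold, beside 0.768% of all. Beside the 6 shared calls, the latter were GstE1 and lig, which with D168A were at 1.33 and 1.10 and at 1.32 and 1.40. CG32488 was above 0 with D168D and small, at 0.32 and 0.17. The sulfhydryl oxidase gene Qsox3, at 1.42 and 1.34 with D168A, had D168D arrays on opposite sides of 0, and so had CG11626 (0.38 and -1.85) and CG9447 (0.97 and -0.14). CG10384 (-0.02 and -0.32) and the gustatory receptor gene Gr98b (-0.34 and -0.41) were below 0 on both D168D arrays. CG15353 and CG7653 were listed at 0 on the Cy3-driven array and were at -0.07 and 0.28 on the other. The 1 gene lower with D168A, Ugt50B3, was at -0.34 and -0.21 with D168D.

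Called genes were spread over the chromosomes. By the RefSeq table of assembly Release 6 plus ISO1 MT, 3 of the 17 higher genes are on X, 6 on 2L, 4 on 2R, 2 on 3L and 2 on 3R. At 1.5-fold, 3R held 9 of its 2783 measured genes (0.323%) among the higher ones, while X, 2L, 2R and 3L held between 0.812% and 1.04%. For the lower genes the order was otherwise, with 13 on 3R (0.467%) and 8 on X (0.4997%), and between 0.180% and 0.247% on the other large arms. Only the pairs Tom with Brd and polybromo with lili were neighbours among measured genes at 1.5-fold.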

How the data were processed

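Pole-cell RNA (100 ng of total RNA per label reaction) was measured on 2-colour Agilent arrays. The authors deposited 1 log10 ratio for each feature. Per the submitters' processing notes, the software was Agilent Feature Extraction 7.1. Its settings for background and dye normalization are not given in these sources. The log base was taken from that software and from the largest size of any value, 2, its 100-fold limit. Dyes were read from the labels. The values are driven over non-driven on every array: zeros are written as negative zero on the arrays with driven RNA in Cy3 (583 features with D168D), as a turned sign leaves them, so no sign was turned. Any centring by the authors is unstated. The D168D array medians over genes were 0 and -0.0023 on the log2 scale. Spot intensities were not used here, so how far a spot lay above background is unknown. Precision is limited by having 2 arrays.

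The platform annotation gave 1 gene symbol to 17329 of 22575 features, several to 326 and none to 4920. Of the first kind, 17325 matched the RefSeq gene table by gene ID. Probes were averaged into 10805 genes, the values were converted to log2, and the 2 arrays were averaged (Python 3.11.15, pandas 2.3.3, numpy 2.4.6). Genes are named if they are Tao, if they reach 2-fold on both D168D arrays, if they are among the 15 highest or lowest between 1.5-fold and 2-fold by the array nearer 0, if they are called with D168A, or if in a list described they reach 1.5-fold or are among its 2 highest or lowest. Core members of the Hippo, JNK, Drep, germ-line and antioxidant lists, the partners of named genes and CG32298 were named for their role or after their values were seen. Members and lists were chosen with earlier results of these data known. Of 49 lists, the 48 with at least 5 measured genes were given a median, and symbols written under an older name were matched through RefSeq synonyms.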

Additional observations from a re-analysis of the deposited data

Results flagged for a closer look

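Some named genes had both D168D arrays on one side of 0 and both D168A arrays on the other. The difference between the forms was not tested. The scavenger receptor gene Sr-CI was at -1.06 with D168D and 0.41 with D168A, a difference of -1.48. Called with D168A, CG10384 and Gr98b were below 0 with D168D and differed by -1.63 and -1.58. E(spl)mbeta-HLH was at 0.78 and -0.19, a difference of 0.97. The germ plasm gene osk was at 0.05 and -0.44 (0.48), and aub at -0.12 and 0.16 (-0.28). Smaller differences were those of bsk (0.30), hpo (0.23) and Drep4 (0.16), and the D168D means of osk, aub, bsk, hpo and Drep4 were all within 0.23 of 0.

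Among the 5246 features without a gene symbol of their own, which no comparison above uses, 12 were at least 2-fold higher on both D168D arrays and 2 were lower.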

How the results depend on the processing

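The rule gave 17 higher and 1 lower gene with D168D, and centring each array or leaving out genes with a listed 0 changed neither count. Fewer or more genes met the rule, by construction, at 1.5-fold (83 and 34) and at 3-fold (6 and 0). Judged by the 2-array mean, 32 and 21 passed, with the Cy3-driven array alone 80 and 40, and with the Cy5-driven array alone 68 and 128. Requiring every probe to pass left 10 higher genes, and counting probes gave 39. The cause of these changes beyond the construction of each rule was not tested. Of 48 list medians, 14 were above and 10 below 0 on both arrays, 0 changed sign after centring, and 6 had a mean of the other sign. With 1 replicate, precision beyond hybridisation is unknown.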
